A study of Homo sapiens with 24 samples.

Results

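The 10 genes WT1, TCF21, BNC1, BNC2, UPK1B, UPK3B, MSLN, SEMA3D, ITLN1 and LRRN4, which are used as markers of the epicardium, were followed in human cardiac differentiation cultures. They were picked by name, as the rows of the gene table whose Ensembl identifier maps to each symbol, and all 10 were found among 62757 genes. TCF21, BNC1, BNC2 and SEMA3D were higher in the AM than in the VM condition, LRRN4 was abundant in both, and WT1, UPK1B, UPK3B, MSLN and ITLN1 were barely counted in either. Fold changes below are on the log2 scale.

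The data were bulk RNA sequencing counts of 24 libraries from embryoid bodies, which are floating aggregates of differentiating cells, kept for at most 14 days under a protocol that modulates Wnt signalling. All cells came from HES3, a human embryonic stem cell line, and all carried a GFP reporter at NKX2-5 and an mCherry reporter at NR2F2. CRISPR-Cas9 had been aimed at LHX2, ZNF503, ZNF711 or, as the control, TRAC, a T cell receptor gene. AM and VM are not spelled out in the labels and are read here as the atrial condition, with retinoic acid at day 4, and the ventricular condition, without it. The 8 groups are therefore AM TRAC, AM LHX2, AM ZNF503 and AM ZNF711, which received retinoic acid, and VM TRAC, VM LHX2, VM ZNF503 and VM ZNF711, which did not. Each group had 3 libraries, numbered 1 to 3. The labels do not say whether cells were clones or pools, or whether the numbers mark separate cultures, so the p-values measure only the spread between these libraries. The labels call the cells cardiomyocytes, but the libraries hold whole cultures as far as they state.

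The epicardium is the mesothelial sheet that covers the heart. It arises from the proepicardium, and some of its cells undergo an epithelial-to-mesenchymal transition and give rise to cardiac fibroblasts and mural cells of the coronary vessels. Retinoic acid, which the epicardium itself makes, is one of the signals used to derive epicardial-like cells and atrial cardiomyocytes from pluripotent stem cells. None of the 10 genes is limited to the epicardium: WT1 also marks kidney and gonad, TCF21 branchiomeric and visceral mesoderm, the uroplakins the urothelium, and MSLN and LRRN4 other mesothelia.

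Library totals ran from 2899786 to 7438010 counts, and 3 counts, the floor taken for detection, were worth 0.447 to 0.963 CPM, that is counts in 1e6 of the library. On the 1000 most variable genes, the first principal component (63.9% of the variance) separated AM from VM. The second (14.6%) set the VM ZNF711 libraries and replicate 3 of VM TRAC, VM LHX2 and VM ZNF503 apart, at −31.4 to −3.47, from the other 6 VM libraries, at 23.1 to 33.2. The same libraries differed in markers of other cell types. The summed level of 12 hepatic and gut endoderm genes was 10316 to 28639 CPM in those replicate 3 libraries and 12164 to 29667 CPM in VM ZNF711, against 1779 to 4709 CPM in the other 6. The summed level of 14 genes of the labelled cell type, cardiomyocytes, was 15889 to 21426 CPM and 12014 to 17925 CPM, against 37746 to 42750 CPM, and it was 15349 to 30613 CPM in AM. The comparisons between the conditions, and those that involve ZNF711, are given also without replicate 3. Of the targeted genes, LHX2 had 0 to 34 counts in any library. ZNF503 RNA in the libraries labelled ZNF503 lay above TRAC without overlap, by 1.40 (SE 0.27, adjusted p = 0.295) in AM and 1.42 (SE 0.30, adjusted p = 1.0) in VM. In these comparisons 8.55% of genes did not overlap in AM and 4.32% in VM. ZNF711 differed from TRAC by −0.34 (SE 0.19, adjusted p = 1.0) in AM and −0.37 (SE 0.19, adjusted p = 0.567) in VM. None of these was called, so the labels are not checked by the targeted genes.

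The 10 genes together drew 17297 counts over the 24 libraries. LRRN4 took 36.6% of them, SEMA3D 25.2%, BNC1 15%, BNC2 10.7% and TCF21 8.50%. The other 5 genes shared the small remainder, with MSLN at 1.55%, UPK1B at 0.960%, WT1 at 0.873%, UPK3B at 0.590% and ITLN1 at 0.0752%. To compare genes of different length, levels were divided by the kilobases covered by a gene's exons. LRRN4 led with a level of 19.6 ± 5.26 CPM per kb (SD, n = 24 libraries). BNC1 (4.50 ± 2.41 CPM per kb) and SEMA3D (4.46 ± 2.43) were next and did not differ beyond their spread. TCF21 followed (2.62 ± 2.87), with a spread that is mostly that between the conditions. In VM, TCF21 ranged over 0.0516 to 1.19 CPM per kb, below BNC1 (1.36 to 4.33) and SEMA3D (1.48 to 4.32). In AM these genes overlapped, with TCF21 at 1.17 to 8.76, BNC1 at 4.96 to 10.3 and SEMA3D at 2.59 to 9.88 CPM per kb. BNC2 stood at 1.001 ± 0.621 CPM per kb, MSLN at 0.858 ± 0.626, UPK1B at 0.601 ± 0.605, UPK3B at 0.322 ± 0.238 and WT1 at 0.309 ± 0.286, each overlapping its neighbours. ITLN1 was last, at 0.0704 ± 0.151 CPM per kb. The cultures thus carried only some of the epicardial markers in quantity, and the transcription factor WT1 was not one of them. In bulk RNA, fewer cells of a type and less RNA per cell cannot be told apart.

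**Figure D1:**
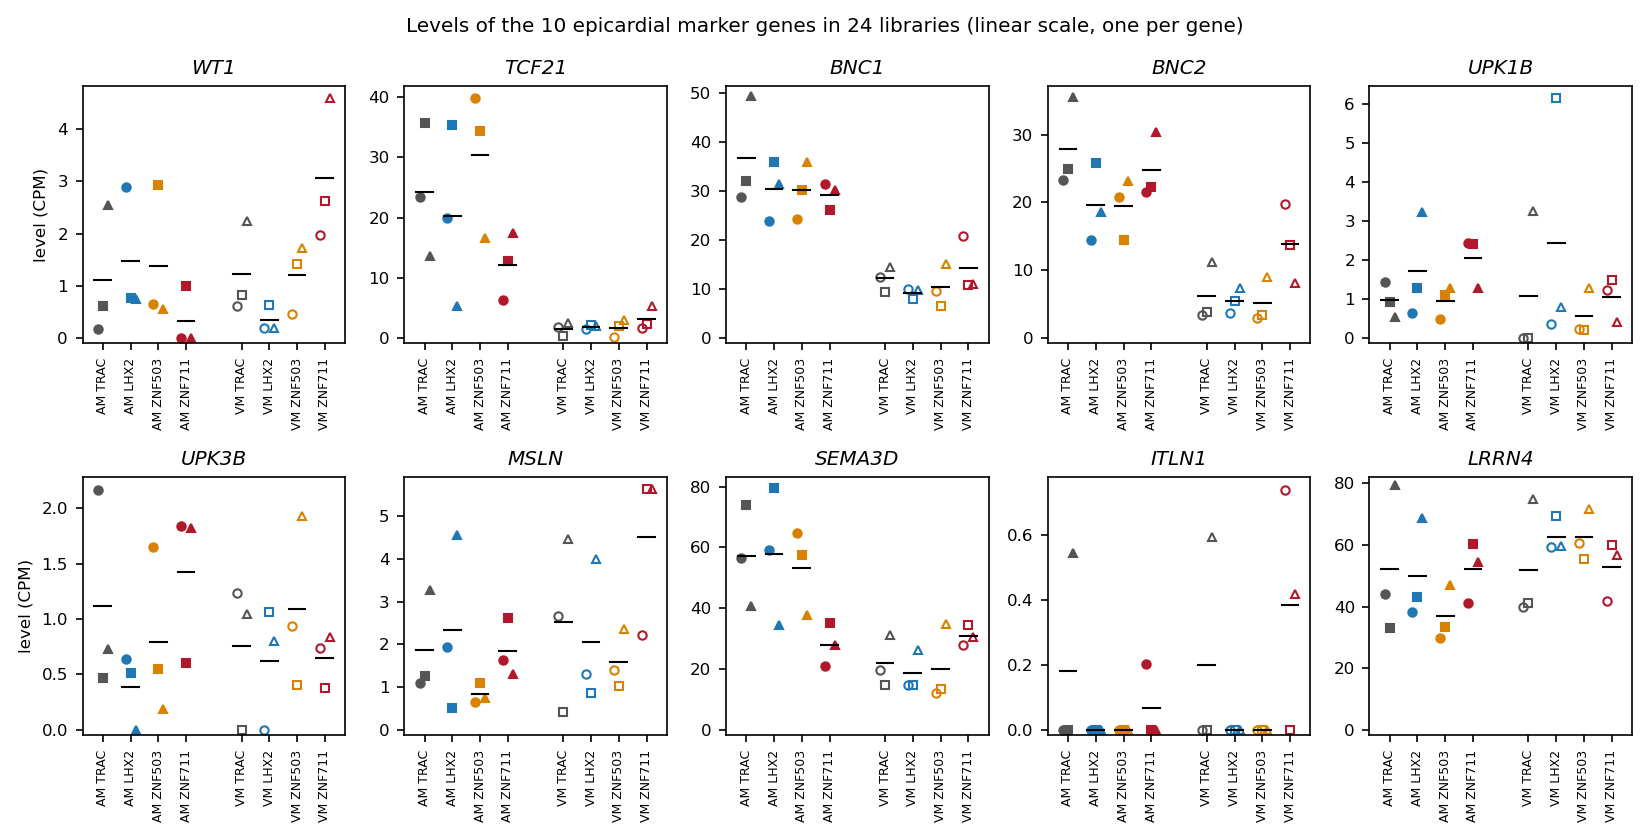
Level of each gene in CPM (vertical axis, linear from 0, its own range per panel) in the 8 groups (horizontal axis). Each symbol is 1 library (circle, square and triangle for replicates 1, 2 and 3, filled for AM and open for VM) and each bar a group mean. BNC1 is the gene whose 12 AM libraries all lie above all 12 VM libraries. WT1, UPK1B, UPK3B, MSLN and ITLN1 stay at or below 6.16 CPM.

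The promoters of the 4 genes that moved between the conditions are shown, from RefSeq (GRCh38.p14), 5′ to 3′ on the gene's strand and ending before the annotated start of the gene. TCF21 is given from chr6:133888863-133889112 (+ strand), BNC1 from chr15:83284715-83284914 (− strand), BNC2 from chr9:16870844-16870920 (− strand) and SEMA3D from chr7:85187057-85187306 (− strand). BNC1 and BNC2 are shortened to leave out their first exons. Capitals mark matches on either strand to the motifs listed after the sequences.
TCF21: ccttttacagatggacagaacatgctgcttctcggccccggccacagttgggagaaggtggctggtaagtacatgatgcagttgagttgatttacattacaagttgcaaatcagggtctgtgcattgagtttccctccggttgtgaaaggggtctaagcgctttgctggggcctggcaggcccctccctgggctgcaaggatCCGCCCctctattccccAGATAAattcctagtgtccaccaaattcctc
BNC1: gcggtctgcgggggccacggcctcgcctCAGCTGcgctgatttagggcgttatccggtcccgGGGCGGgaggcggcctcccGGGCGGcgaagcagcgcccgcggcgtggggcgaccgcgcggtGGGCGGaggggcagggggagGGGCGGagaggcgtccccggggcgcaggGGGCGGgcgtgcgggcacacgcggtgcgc
BNC2: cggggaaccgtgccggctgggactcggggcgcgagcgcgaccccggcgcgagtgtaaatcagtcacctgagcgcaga
SEMA3D: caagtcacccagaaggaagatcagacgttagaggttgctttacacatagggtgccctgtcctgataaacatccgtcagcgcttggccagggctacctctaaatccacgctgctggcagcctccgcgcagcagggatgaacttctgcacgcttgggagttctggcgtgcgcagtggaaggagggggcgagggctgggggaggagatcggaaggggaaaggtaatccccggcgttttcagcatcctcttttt

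The motifs were searched on both strands over the full 250 bases before the start. The first was AGGTCA, which nuclear receptors bind, retinoic acid receptors among them, and which 12.1% of 35116 RefSeq promoters of this length held. The GC box, GGGCGG, was in 42.6% of them. The motif CATTCC of TEAD factors was in 11.9%, and the motif AGATAA of GATA factors in 9.17%. The TATA box, searched as TATAAA, was in 10.7%, and the E-box CAGCTG, which is its own reverse complement, in 14% of them. The TCF21 window held 1 GC box, read as CCGCCC on this strand, and 1 AGATAA. The BNC1 window held 7 GC boxes, 5 of them in the stretch shown, and 1 E-box. The BNC2 window held 2 GC boxes, neither in the stretch shown, and SEMA3D none of the 6 motifs. The letters AGGTCA were in none of the 4 windows. CpG dinucleotides numbered 39 in BNC1 and 36 in BNC2, against 13 in SEMA3D, 5 in TCF21 and a median of 11 over all promoters. RefSeq has another BNC1 window, not shown, inside the gene at chr15:83283458-83283707. It held 1 GC box, none of the other motifs and 27 CpG dinucleotides. A match is a description of the letters only, and binding was not measured here.

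Among the transcription factors, TCF21, a basic helix-loop-helix factor needed for epicardium-derived fibroblasts, changed most between the conditions. In AM, the levels in replicates 1, 2 and 3 were 23.5, 35.7 and 13.7 CPM in TRAC, 19.9, 35.4 and 5.32 CPM in LHX2, 39.9, 34.4 and 16.7 CPM in ZNF503 and 6.34, 12.9 and 17.4 CPM in ZNF711. In VM, in the same order, they were 1.85, 0.413 and 2.53 CPM, 1.504, 2.13 and 2.001 CPM, 0.235, 2.04 and 3.01 CPM and 1.73, 2.45 and 5.43 CPM. Within every target all 3 AM libraries lay above all 3 VM libraries. Across targets the ranges met at 1 point, since AM LHX2 replicate 3 lay just below VM ZNF711 replicate 3. Averaged over the 4 targets, TCF21 was higher in AM by a fold change of 3.31 (SE 0.35, adjusted p = 1.42e-07). TCF21 lies at chr6:133889138-133895553 on the + strand (GRCh38, GENCODE 29), overlapping the antisense long non-coding RNA TARID, which spans chr6:133502252-133892802 on the − strand. TARID ran from 3.83 to 16.6 CPM (median 8.13) in AM and from 0 to 2.82 CPM (median 0.231) in VM, with a fold change of 4.12 (SE 0.44, adjusted p = 7.01e-08). Whether counting used the strand is not given in the sources used here, so reads of the overlap cannot be assigned to one or the other with certainty.

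BNC1 and BNC2 encode basonuclins, a pair of zinc finger proteins. BNC1, at chr15:83255903-83284714, was the steadiest of the 10 genes in its difference. Its AM levels were 28.7, 32.0 and 49.2 CPM in TRAC, 23.8, 35.9 and 31.4 CPM in LHX2, 24.2, 30.2 and 35.8 CPM in ZNF503 and 31.3, 26.2 and 30.2 CPM in ZNF711. Its VM levels, in the same order of targets, were 12.5, 9.49 and 14.6 CPM, 9.96, 8.08 and 9.81 CPM, 9.62, 6.54 and 15.04 CPM and 20.8, 10.9 and 11.1 CPM. The lowest AM library was above the highest VM library, which no other member showed over all 24 libraries; 4.25% of tested genes did. The fold change was 1.47 (SE 0.15, adjusted p = 1.54e-08).

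BNC2, at chr9:16409503-16870843, had AM levels of 23.3, 24.97 and 35.5 CPM in TRAC, 14.5, 25.9 and 18.6 CPM in LHX2, 20.8, 14.5 and 23.2 CPM in ZNF503 and 21.5, 22.3 and 30.4 CPM in ZNF711. Its VM levels, in the same order of targets, were 3.49, 3.92 and 11.2 CPM, 3.76, 5.53 and 7.404 CPM, 3.05, 3.47 and 9.02 CPM and 19.8, 13.7 and 8.15 CPM. AM was above VM within each target, and the only VM library to reach the AM range was VM ZNF711 replicate 1. The mean fold change was 1.67 (SE 0.21, adjusted p = 8.13e-07).

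WT1, the zinc finger factor that controls the epithelial-to-mesenchymal transition in the epicardium, lies at chr11:32387775-32435630 and had 0 to 22 counts a library and 151 in all. Its AM levels were 0.181, 0.624 and 2.55 CPM in TRAC, 2.89, 0.776 and 0.761 CPM in LHX2, 0.659, 2.93 and 0.557 CPM in ZNF503 and 0, 1.01 and 0 CPM in ZNF711. Its VM levels, in the same order of targets, were 0.615, 0.825 and 2.24 CPM, 0.188, 0.638 and 0.200 CPM, 0.469, 1.43 and 1.72 CPM and 1.98, 2.63 and 4.60 CPM. The conditions overlapped, 14 of 24 libraries were above 3 counts, and the mean fold change of −0.26 (SE 0.54, adjusted p = 0.754) was not called. Without replicate 3 the fold change was 0.007 (SE 0.83, adjusted p = 0.993). WT1 was thus detected in some libraries of every group but VM LHX2, whose highest library had 3 counts, and AM ZNF711 reached 5 counts in 1 library only.

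Of the cell surface proteins, LRRN4, a leucine-rich repeat membrane protein used as a mesothelial marker, lies at chr20:6040778-6054049 and was the most counted of the 10. Its AM levels were 44.1, 32.9 and 79.4 CPM in TRAC, 38.2, 43.2 and 68.8 CPM in LHX2, 29.8, 33.5 and 47.2 CPM in ZNF503 and 41.3, 60.2 and 54.6 CPM in ZNF711. Its VM levels, in the same order of targets, were 40.01, 41.0 and 74.8 CPM, 59.2, 69.3 and 59.6 CPM, 60.5, 55.4 and 71.5 CPM and 41.8, 60.0 and 56.6 CPM. The ranges overlapped widely, and the fold change of −0.28 (SE 0.14, adjusted p = 0.153), with a 95% interval of −0.58 to 0.02, was not called. With the replicate number as a block it was called lower in AM (adjusted p = 0.0203), as it was with no filter on low counts (adjusted p = 0.0471), without AM TRAC replicate 3 (adjusted p = 0.0244) and without all libraries numbered 3 (adjusted p = 0.0128). LRRN4 thus did not share the higher AM level of TCF21 and the basonuclins.

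MSLN, the mesothelial surface glycoprotein mesothelin, lies at chr16:760762-768865 and ranged over 0.517 to 4.56 CPM (median 1.27) in AM and 0.413 to 5.64 CPM (median 2.29) in VM. Its fold change was −0.61 (SE 0.39, adjusted p = 0.247), and the conditions overlapped. Without replicate 3 it was −0.41 (SE 0.48, adjusted p = 0.612). UPK1B, a tetraspanin of the uroplakin plaques of the urothelium that mesothelia also make, lies at chr3:119173517-119205153 and ranged over 0.494 to 3.23 CPM (median 1.30) and 0 to 6.16 CPM (median 0.609), with a fold change of 0.24 (SE 0.55, adjusted p = 0.774). Without replicate 3 the UPK1B fold change was 1.60 (SE 0.72, adjusted p = 0.117). The highest UPK1B value was in VM LHX2 replicate 2, whose companions were at 0.376 and 0.800 CPM. UPK3B, a uroplakin at chr7:76510428-76516521, had 102 counts in all and did not pass the filter on low counts. It ranged over 0 to 2.17 CPM (median 0.623) and 0 to 1.93 CPM (median 0.818). Its near copies UPK3BL1 and UPK3BL2 had 0 counts in every library, and how reads shared among the copies were assigned is not given in the sources used here, so the UPK3B level is uncertain. The 4 surface markers thus comprised 1 abundant gene and 3 low ones, and none was called between the conditions with all 24 libraries, the filter and no block.

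Of the secreted proteins, SEMA3D, a class 3 semaphorin that guides migrating cells and vessels, lies at chr7:84995553-85186855. Its AM levels were 56.6, 74.0 and 40.6 CPM in TRAC, 59.1, 79.6 and 34.6 CPM in LHX2, 64.7, 57.5 and 37.7 CPM in ZNF503 and 20.9, 35.2 and 27.8 CPM in ZNF711. Its VM levels, in the same order of targets, were 19.7, 14.6 and 31.3 CPM, 14.9, 14.7 and 26.2 CPM, 12.0, 13.5 and 34.8 CPM and 27.9, 34.6 and 30.5 CPM. AM was above VM without overlap in TRAC, LHX2 and ZNF503, and the conditions overlapped in ZNF711. The mean fold change was 1.06 (SE 0.19, adjusted p = 1.62e-04). ITLN1, intelectin 1, a secreted lectin at chr1:160876539-160885170, had 13 counts in all, was at 0 in 19 of 24 libraries and was not tested. Its highest library had 4 counts. Its near copy ITLN2 had 113 counts.

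The first comparison asked how the members differ between the conditions. Of the 10 genes, 4 were called higher in AM at an adjusted p below 0.05 (edgeR, all 4 targets averaged), 0 were called lower, 4 were tested without a call and 2 were not tested. Of all 17724 tested genes, 34.5% were called, 16.8% higher and 17.6% lower. The median fold change of the 8 tested members was 0.65, beside −0.01 for all tested genes. Called genes were TCF21, BNC1, BNC2 and SEMA3D, and their fold changes kept their direction and their call under the 7 alternative settings that used every library. Without the libraries numbered 3 the fold changes were 3.93 (adjusted p = 3.17e-09) for TCF21, 1.45 (adjusted p = 1.05e-06) for BNC1, 1.91 (adjusted p = 8.58e-08) for BNC2 and 1.56 (adjusted p = 2.25e-08) for SEMA3D. The median of the 8 was then 1.51. Markers of other cell types moved with the condition too. The 14 cardiomyocyte genes had a median fold change of −0.60, with 9 lower and 1 higher, and the 12 hepatic genes −2.23, with 6 lower and 2 higher. Without replicate 3 they had 11 lower and 1 higher, and 6 lower and 3 higher. The part of these in the members' differences was not tested.

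Within each target, the same 4 genes were called higher in TRAC (11.3% of genes called, 6.18% higher and 5.12% lower), LHX2 (8.56%, 4.68% and 3.88%) and ZNF503 (8.86%, 4.77% and 4.1%). Their AM and VM libraries did not overlap in any of the 3, as for 26.1% of genes in TRAC, 23.9% in LHX2 and 23.5% in ZNF503. In TRAC the fold changes were 3.86 (adjusted p = 7.31e-04) for TCF21, 1.58 (adjusted p = 5.04e-04) for BNC1, 2.13 (adjusted p = 0.00116) for BNC2 and 1.37 (adjusted p = 0.0216) for SEMA3D. In LHX2 they were 3.4 (adjusted p = 0.00293), 1.71 (adjusted p = 3.56e-04), 1.82 (adjusted p = 0.00745) and 1.63 (adjusted p = 0.00982) in the same order. In ZNF503 they were 4.06 (adjusted p = 5.32e-04), 1.53 (adjusted p = 9.48e-04), 1.90 (adjusted p = 0.00499) and 1.41 (adjusted p = 0.0235). The SEMA3D call was the least firm. It was lost in TRAC without AM TRAC replicate 1 or 2 or VM TRAC replicate 1 or 2, with an adjusted p of up to 0.115. It was lost likewise in ZNF503 without AM or VM ZNF503 replicate 1 or 2 (up to 0.111), and in LHX2 without AM LHX2 replicate 2 or VM LHX2 replicate 1 or 2 (up to 0.0736). Without AM LHX2 replicate 2 the BNC2 call in LHX2 was lost as well (adjusted p = 0.0518). LRRN4 did not overlap between the conditions in ZNF503, where AM was lower, with −0.76 (adjusted p = 0.118) and was called with the replicate block (adjusted p = 0.00850), the block in each condition (0.00591), no filter (0.00716), only the groups compared (0.0337) and without replicate 3 (0.0222). Without replicate 3 all 4 genes kept their calls in TRAC, LHX2 and ZNF503, and SEMA3D was 1.93 (adjusted p = 5.08e-05), 2.23 (adjusted p = 1.41e-05) and 2.26 (adjusted p = 1.06e-05) there.

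**Figure D2:**
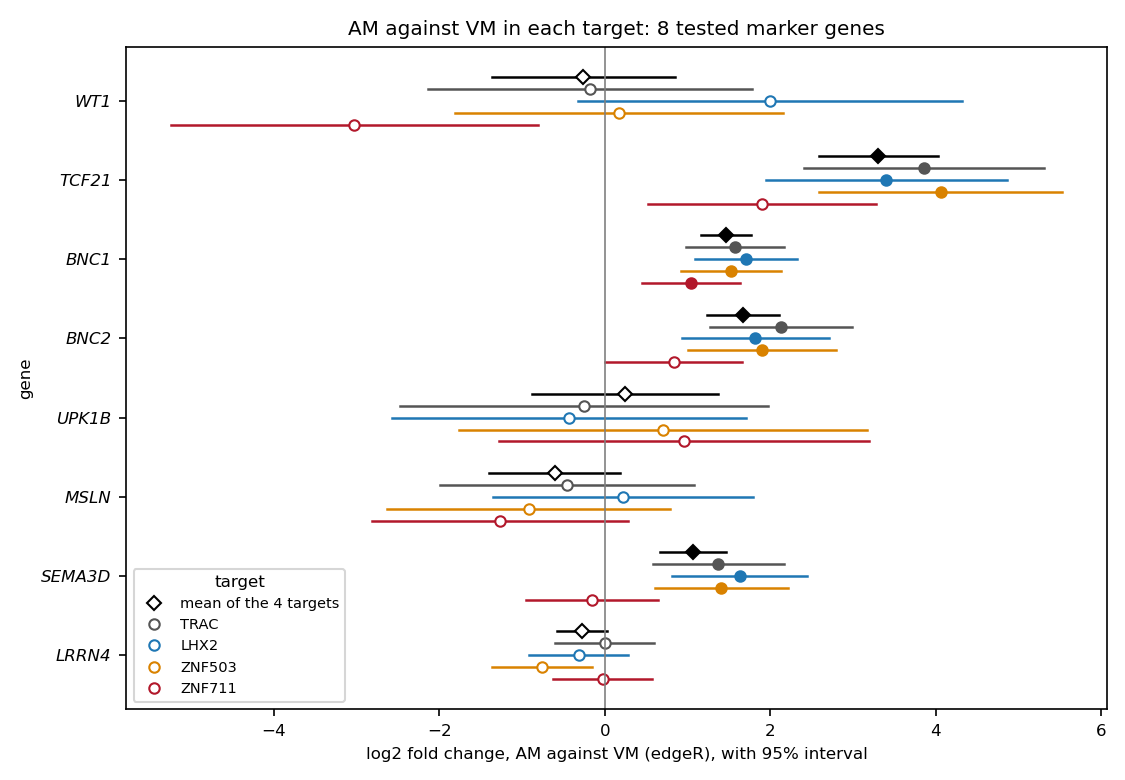
Fold change of AM against VM on the log2 scale (horizontal axis) for the 8 tested genes (vertical axis), averaged over the 4 targets (diamond) and within each target (circles), with 95% intervals from edgeR. Filled symbols have an adjusted p below 0.05. In ZNF711, BNC1 alone is filled, SEMA3D lies at −0.15, and WT1 lies at −3.03 with a wide interval.

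In ZNF711 only BNC1 was called, with 13.2% of genes called, 6.81% higher and 6.42% lower. BNC1 differed by 1.04 (SE 0.29, adjusted p = 0.0169), and this call was lost without AM ZNF711 replicate 1, VM ZNF711 replicate 2 or VM ZNF711 replicate 3, with an adjusted p of up to 0.0981. TCF21 differed by 1.90 (SE 0.66, adjusted p = 0.0609) and BNC2 by 0.84 (SE 0.40, adjusted p = 0.179), both with AM above VM and no overlap, as for 32.9% of genes, without a call. The TCF21 difference was called with library size alone (adjusted p = 0.0484), no filter (2.83e-05), the block in each condition (0.0188), only the groups compared (0.00939), DESeq2 (0.0171) and without replicate 3 (0.0198). Without replicate 3 the BNC1 call was lost (0.105), and BNC2 was 0.37 (adjusted p = 0.571). SEMA3D differed by −0.15 (SE 0.38, adjusted p = 0.856), with a 95% interval of −0.95 to 0.65, beside intervals of 0.58 to 2.16 in TRAC, 0.82 to 2.44 in LHX2 and 0.60 to 2.21 in ZNF503. The tests of that difference are given with the comparisons between targets. WT1 was lower in every AM library than in every VM library of ZNF711, with a fold change of −3.03 (SE 1.08, adjusted p = 0.0628). The WT1 difference was called with the replicate block (adjusted p = 0.0268), the block in each condition (0.0181), only the groups compared (0.0292) and DESeq2 (0.0341), and not without replicate 3 (0.339). It rests on 5 counts in AM and 44 in VM. With the replicate block the members called in ZNF711 numbered 2.

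The second comparison set each target against TRAC in the same condition. The 3 AM comparisons share the AM TRAC libraries and the 3 VM comparisons the VM TRAC libraries. No member was called in any of the 6 by edgeR with all 24 libraries, the filter and no block, or by DESeq2. Under some other edgeR settings members were called in ZNF711 against TRAC, in AM and in VM, as given below. The share of all genes called was 0% in 5 of them and 0.0169% in ZNF711 against TRAC in VM. At an unadjusted p below 0.05 the shares of all genes were 7.74% for LHX2, 1.74% for ZNF503 and 3.49% for ZNF711 in AM, and 2.61%, 1.55% and 9.4% in VM. At that same unadjusted level 1 member passed in AM, SEMA3D in ZNF711, and 1 in VM, BNC2 in ZNF711. In the LHX2 and ZNF503 comparisons with TRAC, the fold changes of TCF21, BNC1, BNC2 and SEMA3D lay between −0.52 and 0.32 in both conditions. The 95% interval for TCF21 was still −1.47 to 0.91 for LHX2 in AM, so a change of that size was not detectable here.

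In AM, SEMA3D was lower in all 3 ZNF711 libraries than in all 3 TRAC libraries, at 28.0 ± 7.19 against 57.1 ± 16.7 CPM (mean ± SD, n = 3), and 11.7% of genes did not overlap in this comparison. The fold change was −1.03 (SE 0.38, adjusted p = 1.0), with an unadjusted p of 0.0129. With the replicate number as a block in each condition the adjusted p was 0.0431. The share of all genes called with that block is not given here. TCF21, at 12.2 ± 5.58 against 24.3 ± 11.1 CPM, overlapped between the groups, and its fold change was −1.0 (SE 0.58, adjusted p = 1.0). BNC1 and BNC2 in AM differed from TRAC by −0.33 and −0.18, both overlapping.

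In VM, BNC2 stood at 13.9 ± 5.82 CPM in ZNF711 against 6.19 ± 4.32 CPM in TRAC. The fold change was 1.12 (SE 0.42, adjusted p = 0.375), with an unadjusted p of 0.0140, and VM TRAC replicate 3 was above ZNF711 replicate 3. With the block in each condition the adjusted p was 0.0481. Without VM TRAC replicate 3 the adjusted p was 0.0218, and without all libraries numbered 3 the fold change was 2.18 and the adjusted p 0.00147. The shares of all genes called under these settings are not given here, so these calls cannot be set beside them. SEMA3D in VM had a fold change of 0.49 (SE 0.38, adjusted p = 0.724), with overlap. The VM ZNF711 libraries are those with the low cardiomyocyte and high hepatic sums given above, and the part of these in the BNC2 and SEMA3D values was not tested.

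The difference between the conditions was then compared between targets. With all 24 libraries, the filter and no block, edgeR called no member in the 3 tests of a target against TRAC, AM minus VM. Of all genes 0% were called for LHX2 and ZNF503 and 0.00564% for ZNF711. At an unadjusted p below 0.05 the shares were 3.72%, 1.95% and 6.4%, and the members that passed were SEMA3D and BNC2, both for ZNF711. DESeq2 called none of them. SEMA3D had a fold change of −1.52 (SE 0.54, adjusted p = 0.607) for ZNF711, and the adjusted p was 0.00838 with the block in each condition and 0.00412 without replicate 3. A contrast chosen after seeing the data set ZNF711 against the mean of the other 3 targets. For SEMA3D the AM minus VM difference was −1.62 (SE 0.45, adjusted p = 0.122) where 0.0282% of genes were called. The adjusted p was 0.101 with the replicate block and 2.64e-04 with the block in each condition, when 8.3% of genes were called. Without replicate 3 the difference was −2.32 (SE 0.31, adjusted p = 1.31e-04) for SEMA3D and −2.05 (SE 0.39, adjusted p = 0.00358) for BNC2, when 4.39% of genes were called. In VM alone BNC2 differed by 1.28 (SE 0.33, adjusted p = 0.0576), when 0.97% of genes were called, and its adjusted p was 0.00399 with the replicate block, when 12% were. In AM alone, where no gene was called, SEMA3D differed by −1.0 (SE 0.33, adjusted p = 0.569). The smaller AM minus VM difference of SEMA3D in ZNF711 than elsewhere was therefore past the threshold with the block in each condition, without replicate 3 or, against TRAC, with no filter on low counts, and not otherwise.

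**Figure D3:**
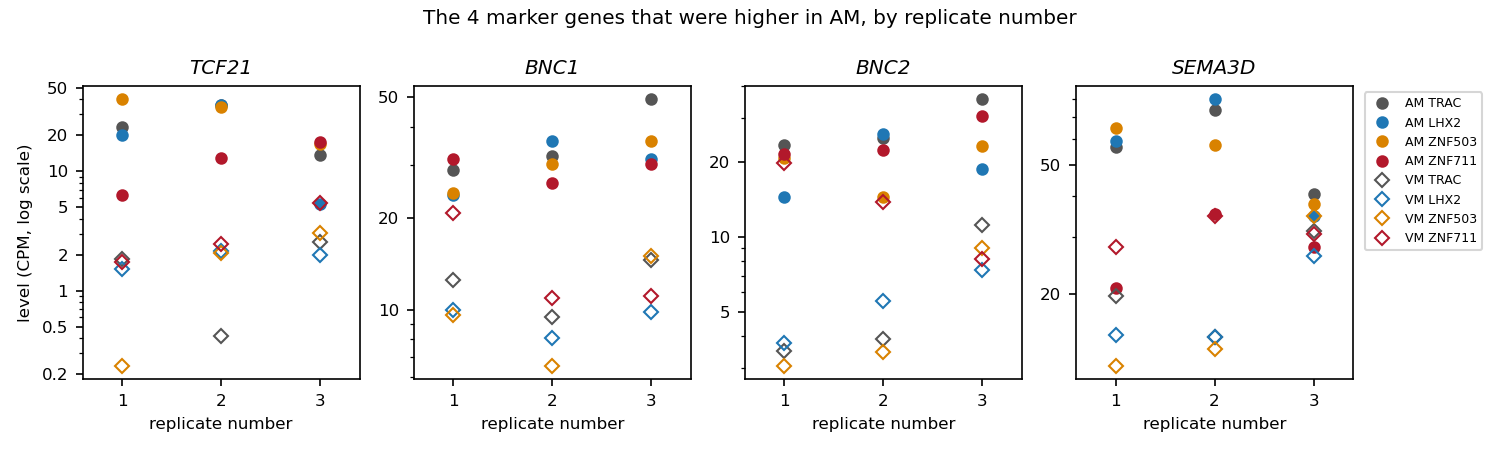
Level in CPM (vertical axis, log scale) by replicate number (horizontal axis) for the 4 genes higher in AM, with 1 symbol per library (filled circles AM, open diamonds VM, colour for the target). For SEMA3D, replicate 3 is the lowest AM library and the highest VM library in TRAC, LHX2 and ZNF503, so that the conditions lie closest there.

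Levels of several members varied with the replicate number as well as the condition. The share of all genes that did so is not given here. Replicate 3 of VM TRAC, VM LHX2 and VM ZNF503 also stood apart over the most variable genes, as given above. In VM, replicate 3 was the highest library of its group for SEMA3D, BNC2 and MSLN in TRAC, LHX2 and ZNF503, and for TCF21 and WT1 in TRAC, ZNF503 and ZNF711. In AM, replicate 3 was the lowest for TCF21 and SEMA3D in TRAC, LHX2 and ZNF503, and the highest for LRRN4 in the same 3 targets and for BNC2 in TRAC, ZNF503 and ZNF711. In AM TRAC, for example, SEMA3D was 40.6 CPM in replicate 3 against 56.6 and 74.0 CPM, while LRRN4 was 79.4 CPM against 44.1 and 32.9 CPM. The members thus did not rise and fall as 1 group.

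Their pairwise correlations over the 24 libraries, which share condition and depth, are a description. Pearson's r of log2 CPM was 0.905 (0.675 within groups) for BNC1 and BNC2 and 0.876 (0.784 within groups) for TCF21 and SEMA3D. For TCF21 and BNC1 it was 0.802 (−0.082 within groups), so it was not seen within groups. LRRN4 correlated with TCF21 at −0.457 (−0.170 within groups) and with MSLN at 0.530 (0.582 within groups), and WT1 with TCF21 at 0.018 (0.306 within groups).

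Among other genes, the ones most like a member over the 24 libraries were PLAT (r 0.953) and SHISA2 (0.944) for TCF21, MYH11 (0.942) and VEGFC (0.940) for BNC1, and ZFHX4 (0.949) and PDE3A (0.936) for BNC2. For SEMA3D they were FAT3 (0.937) and PCDH18 (0.933), and for LRRN4 SYNPO2L (0.835) and RGS5 (0.827). Within groups these values fell to 0.795 for PLAT, 0.467 for MYH11, 0.763 for ZFHX4, 0.832 for FAT3 and 0.807 for SYNPO2L. MYH11, the smooth muscle myosin heavy chain, was itself far higher in AM, at 103 to 333 CPM in AM against 0 to 7.003 CPM in VM. To the mean of the 8 standardised members, MET (0.907), the receptor of hepatocyte growth factor, was closest.

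The wider epicardial and mesothelial list held 16 other genes, of which 13 were tested. In AM against VM, 5 were called higher, 5 lower and 3 neither, with a median fold change of −0.02. MUC16, a mesothelial mucin, was higher, at 41.7 to 84.1 CPM in AM against 4.89 to 18.6 CPM in VM, a fold change of 2.73 (SE 0.16, adjusted p = 2.26e-12). CALB2, calretinin, was higher, at 3.64 to 9.89 CPM in AM against 0.188 to 2.82 CPM in VM, by 2.25 (SE 0.25, adjusted p = 1.33e-07). TBX18, a proepicardial T-box factor named after its values were seen, was higher by 1.88 (SE 0.34, adjusted p = 2.86e-04), with a median of 54.3 CPM in AM and 6.46 CPM in VM. Its ranges overlapped, at 9.70 to 71.0 CPM in AM and 3.28 to 32.6 CPM in VM. C3, complement component 3, which hepatocytes make in quantity, was lower, at 2.05 to 9.89 CPM in AM against 38.3 to 329.6 CPM in VM, a fold change of −4.69 (SE 0.37, adjusted p = 1.94e-08), and PDPN, podoplanin, was lower, at −1.23 (SE 0.14, adjusted p = 1.04e-07). KRT19, a keratin of many epithelia and the most abundant of the list, was lower, at −0.63 (SE 0.18, adjusted p = 0.0101). The list thus split evenly. Without replicate 3, 5 were called higher and 4 lower, and C3 was −4.05 (adjusted p = 2.05e-10). The hepatic sum given above was 315 to 2602 CPM in AM and 1779 to 29667 CPM in VM, and its part in these values was not tested.

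**Figure D4:**
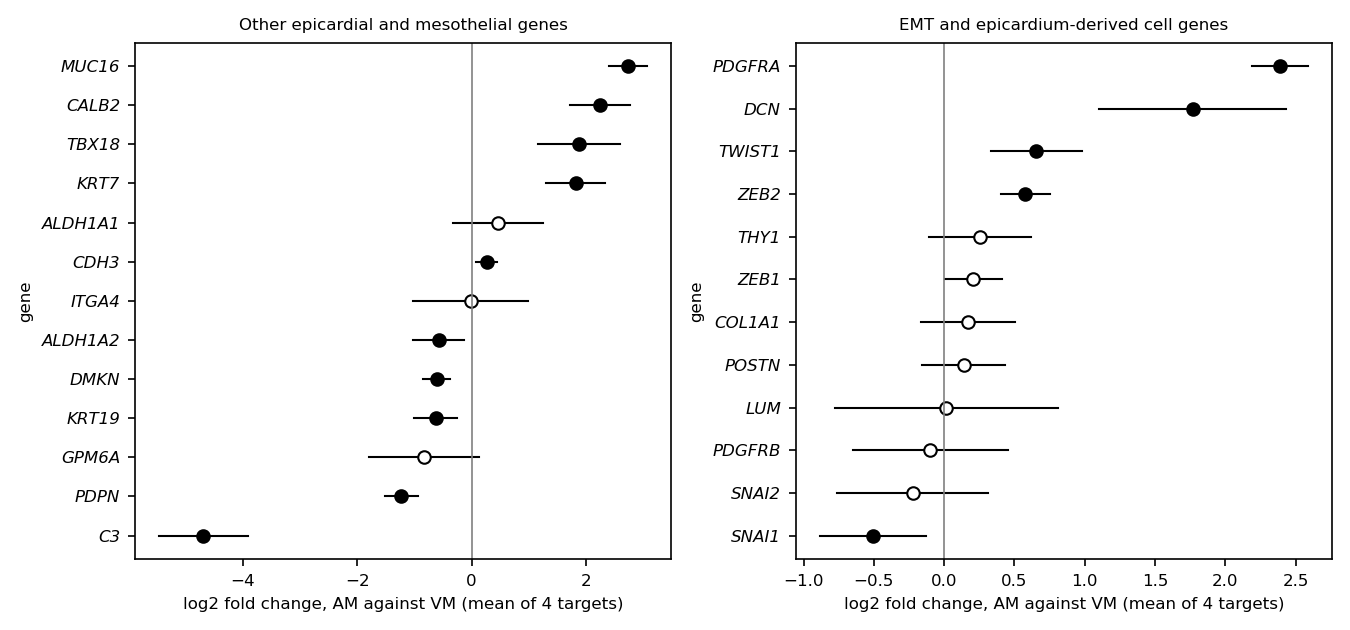
Fold change of AM against VM on the log2 scale, averaged over the 4 targets (horizontal axis), with 95% intervals, for the tested genes (vertical axis) of 2 related lists. Filled symbols have an adjusted p below 0.05. Other epicardial and mesothelial genes run from C3 at −4.69 to MUC16 at 2.73, and PDGFRA leads the mesenchymal list at 2.39.

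All 12 genes of the epithelial-to-mesenchymal transition and of epicardium-derived cells were tested, with 4 called higher, 1 lower and 7 neither, and a median fold change of 0.19. PDGFRA, the receptor that marks fibroblast progenitors, was higher in every AM library, at 381 to 487 CPM in AM against 51.7 to 115 CPM in VM, by 2.39 (SE 0.10, adjusted p = 5.65e-16). DCN, decorin, a fibroblast proteoglycan, was higher by 1.77 (SE 0.32, adjusted p = 1.33e-04), TWIST1 by 0.66 (SE 0.16, adjusted p = 0.00192) and ZEB2, a transcription factor of the transition, by 0.58 (SE 0.08, adjusted p = 6.16e-06). SNAI1 and SNAI2, also on the list and named after their values were seen, had lower medians in AM. They were 10.4 CPM in AM against 15.2 CPM in VM for SNAI1, and 6.90 against 8.98 CPM for SNAI2. Without replicate 3 neither was called, at −0.14 (adjusted p = 0.612) for SNAI1 and 0.08 (adjusted p = 0.862) for SNAI2. COL1A1, the most abundant of the list, was not called, at 0.17 (SE 0.16, adjusted p = 0.455). Without replicate 3, 4 were called higher and 0 lower, COL1A1 was 0.52 (adjusted p = 1.81e-04) and TWIST1 0.57 (adjusted p = 0.0515).

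Lists for other tissues that use the members were read beside them. Of 8 branchiomeric mesoderm genes, another site of TCF21, 6 were tested, with 4 called higher in AM and 1 lower, and their summed level was 180 to 260 CPM in AM and 40.4 to 124 CPM in VM. ISL1 was higher by 1.72 (SE 0.13, adjusted p = 2.46e-10) and EBF3 by 2.56 (SE 0.33, adjusted p = 1.97e-06), while the gene called lower was LHX2, at −1.23 (SE 0.37, adjusted p = 0.0105), named after its values were seen. LHX2 is itself a targeted gene here and had 0 to 34 counts a library. The part of branchiomeric cells in the TCF21 difference was not tested. Of 12 kidney and gonad genes, the other sites of WT1, 5 were tested and 2 were called higher, OSR1 by 3.08 (SE 0.28, adjusted p = 1.13e-08) and GATA4 by 0.53 (SE 0.09, adjusted p = 4.77e-05), and both are also made in heart mesoderm. Of 10 urothelial and epithelial genes 7 were tested, with 2 called higher and 1 lower. TP63, an epithelial transcription factor, was higher, at 9.37 to 20.9 CPM in AM against 0.821 to 13.6 CPM in VM, by 1.60 (SE 0.21, adjusted p = 1.51e-06). UPK3A, a uroplakin, was lower, at 0 to 0.929 CPM in AM against 0 to 7.75 CPM in VM, with −3.37 (SE 0.83, adjusted p = 0.00265). Of 11 genes that respond to retinoic acid, 4 were called higher and 2 lower, with CYP26C1, a retinoic acid hydroxylase, at 0 to 3.90 CPM in AM against 9.69 to 73.0 CPM in VM. Of 10 endothelial genes, 7 were called higher and 0 lower, and of 8 smooth muscle genes 2 higher and 3 lower. Without replicate 3 the branchiomeric genes had 5 called higher and 1 lower, the kidney and gonad genes 2 and 0, the urothelial and epithelial genes 4 and 0 (UPK3A was not tested), the retinoic acid genes 4 and 1, the endothelial genes 5 and 0, and the smooth muscle genes 2 and 2.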

How the data were processed

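Gene counts of 24 bulk RNA-seq libraries (8 groups of 3) were deposited by the authors. STAR and GRCh38 are named per the submitters' processing notes. The counting program, strandedness and annotation are not given in the sources used here. The labels give polyA RNA in 1 field and ribosomal depletion (KAPA RiboErase, Roche) in another. Groups came from the titles. Every column matched a library.

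From the deposited counts, genes were kept by filterByExpr (17724 of 62757, with 23919 at 0 in every library) and compared by the quasi-likelihood test of edgeR 4.0.16 (robust, TMM scaling, a mean for each of 8 groups, all 24 libraries). In each of 14 comparisons p-values of all tested genes were adjusted by the Benjamini-Hochberg method, and a gene was called below 0.05. CPM use TMM-scaled library sizes. Lengths are exon unions of GENCODE 29, and promoters (8 of 10 members matched) are RefSeq windows. Floors of 3 counts cover counting error only. The biological coefficient of variation was 25%. Alternatives were DESeq2 1.42.0, the compared groups without the others, a replicate block over all libraries or within each condition, scaling by relative log expression or by library size, the filter dropped or set at 1 CPM in 3 or more libraries, and each library left out in turn. Leaving out replicate 3, and ZNF711 against the mean of the other targets, were chosen after seeing the data. Over the 30 pairs of same-numbered libraries in compared groups, deviations from the group means correlated at 0.125 to 0.786. The main fit did not use this pairing, and only the block alternatives did. The biological coefficient of variation was 16.9% with the replicate block and 14.3% with the block in each condition. What the replicate numbers stand for is not stated. The fit was tested on simulated data.

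The members and the lists were chosen with earlier results of these data known. All 10 members are named. From each list the text may name the 4 genes with the lowest p in AM against VM and the 4 with the highest mean CPM, and among genes like a member those with the highest Pearson r.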

Additional observations from a re-analysis of the deposited data

Results flagged for a closer look

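The WT1 libraries were ordered in opposite directions in a pair of targets, at 0 to 22 counts a library. In LHX2 every AM library (2.89, 0.776 and 0.761 CPM) was above every VM library (0.188, 0.638 and 0.200 CPM), a log2 fold change of 1.99 (SE 1.13, adjusted p = 0.336). AM LHX2 replicate 2 and VM LHX2 replicate 2 both had 3 counts, so their order comes from library size alone, and 23.9% of genes did not overlap in LHX2. In ZNF711 every AM library (0, 1.01 and 0 CPM) was below every VM library (1.98, 2.63 and 4.60 CPM), a log2 fold change of −3.03 (SE 1.08, adjusted p = 0.0628), and 32.9% of genes did not overlap there. The difference between the targets, in a direct contrast chosen after seeing the data, was 5.03 (SE 1.56, edgeR adjusted p = 0.251, with 0.00564% of genes called). The adjusted p was 0.0711 with the replicate block, 0.0243 with a block in each condition and 0.318 without replicate 3. The 4 groups hold 16, 5, 5 and 44 WT1 counts in the order AM LHX2, VM LHX2, AM ZNF711 and VM ZNF711.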

How the results depend on the processing

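No direction of a called member reversed under any setting run. The number of members called in AM against VM was 4 to 5 over the settings with all libraries for the mean of the targets, 4 for TRAC and LHX2 and 4 to 5 for ZNF503. In ZNF711, where 1 was called, it was 2 with library size alone, no filter or the replicate block, and 3 with the block in each condition, only the groups compared or DESeq2. In ZNF711 against TRAC, where 0 were called, it was 1 in AM with no filter or the block in each condition, 1 in VM with that block or without replicate 3, and in AM minus VM 1 with no filter or that block and 2 without replicate 3. With single libraries left out the counts ran from 4 to 5 (mean), 3 to 4 (TRAC), 2 to 4 (LHX2, lowest without AM LHX2 replicate 2), 3 to 4 (ZNF503), 0 to 2 (ZNF711) and 0 to 1 (ZNF711 against TRAC in VM, 1 without VM TRAC replicate 3), and stayed at 0 in the other comparisons. The cause of these shifts was not tested. In the 14 comparisons, the replicate block over all libraries changed the calls of WT1 in ZNF711 and of LRRN4 over all targets and in ZNF503, and no other. Some other settings changed these calls too. In the contrast of ZNF711 with the mean of the other targets, the replicate block also changed the call of BNC2 in VM. With only the groups compared, SEMA3D in ZNF503 had an adjusted p of 0.0666. Without replicate 3, BNC1 in ZNF711 had an adjusted p of 0.105. Depth limits WT1, UPK1B, UPK3B, MSLN and ITLN1, whose libraries hold at most 30 counts each.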
